A study of Ovis aries with 36 samples.

Results

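The 8 genes described here, HMGCS1, IDI1, FDFT1, SQLE, LSS, DHCR7, INSIG1 and SREBF2, encode enzymes of cholesterol synthesis and 2 proteins that control it. They were found by gene name among 34958 loci counted in longissimus dorsi muscle, 34246 in subcutaneous adipose tissue and 35060 in perirenal adipose tissue of sheep fetuses. Every one of the 8 names was present in all 3 tissues, with reads at 1 locus each, and every one passed the filter on low counts in every tissue. None of the 8 takes up cholesterol from outside the cell, so a list of uptake genes was described beside them.

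Cells make cholesterol from acetyl-CoA through mevalonate, isoprenoids, squalene and lanosterol. When sterols in the endoplasmic reticulum are scarce, the transcription factor SREBP-2, the product of SREBF2, is cut free, enters the nucleus and raises transcription of the enzymes and of INSIG1. When sterols are plentiful, INSIG1 protein holds SREBP-2 in the endoplasmic reticulum. Growing tissue needs cholesterol for new membranes, and a fetus makes much of its own.

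RNA came from 26 fetuses of 15 Polypay ewes, all bred to the same ram and fed from mid to late gestation on alfalfa haylage (HY, hay in the labels), whole corn (CN) or dried corn distillers grains (DG). There was no untreated group, so each diet was compared with the others. The RNA was pooled to 4 libraries per diet and tissue, 2 of female fetuses (F1 and F2) and 2 of male fetuses (M1 and M2), which gave 36 libraries. Some pools of a diet held fetuses of the same dam, so pools are not fully independent, and p-values measure the spread between these pools. The values deposited were read counts per locus, given here as CPM (each library's counts scaled to a common total) with scaling within each tissue unless stated otherwise.

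Total counts per library ranged from 6705766 to 29625146. Muscle libraries of DG (at least 20370147) were all deeper than those of CN (at most 19387181). Subcutaneous libraries differed widely in the summed level of 11 skeletal muscle marker genes, from 843 CPM in HY F1 to 138763 CPM in DG F1, against 114441 to 167027 CPM for 12 such genes in muscle itself and at most 734 CPM in perirenal tissue. The 6 adipocyte markers present summed to between 2119 and 11186 CPM in subcutaneous tissue, between 6833 and 17528 CPM in perirenal tissue and between 77.0 and 163 CPM in muscle, so adipocyte genes marked both depots, and muscle RNA was present in many subcutaneous pools. In pooled tissue RNA, fewer cells of a type and less RNA per cell cannot be told apart.

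The first enzyme of the list, HMGCS1, joins acetyl-CoA to acetoacetyl-CoA, and lies on chromosome 16 (31409634 to 31433762 of Oar_v3.1, muscle locus). IDI1, which interconverts the C5 isoprenoid units, lies on chromosome 13 (45497757 to 45504441). FDFT1 makes squalene and lies on chromosome 2 (104399048 to 104427956), and SQLE, the second control point of the pathway, oxidises squalene and lies on chromosome 9 (28005596 to 28027908). LSS closes the ring to lanosterol (chromosome 1, 264029610 to 264059433), and DHCR7 carries out a last reduction to cholesterol (chromosome 21, 47574396 to 47584581). INSIG1 lies on chromosome 4 (116464077 to 116541268) and SREBF2 on chromosome 3 (216883953 to 216922847). Each interval is the whole merged gene, exons and introns together, and the counts do not separate transcripts, exons or untranslated regions.

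The 3 tissues differed in the levels of most of these genes, in a pattern that was not the same for all enzymes. IDI1, INSIG1, HMGCS1 and SQLE were higher in the fat depots than in muscle, FDFT1 was lower in the depots, and LSS was highest in perirenal tissue. The subcutaneous levels came from pools with 843 to 138763 CPM of skeletal muscle markers, against at most 734 CPM in perirenal tissue. The part of muscle RNA in the differences between tissues was not tested. DHCR7 was far higher in muscle than in either depot, on gene models that differ between tissues. On a scale set across all 36 libraries, 8 of 8 genes differed between subcutaneous tissue and muscle (FDR ≤0.05, where 73% of 14629 genes did), 7 of 8 between perirenal tissue and muscle (80.6% of all genes) and 5 of 8 between the 2 depots (67.9% of all genes). These shares stand close to those of all genes. These tests used edgeR's quasi-likelihood F test with each pool as a block. Pools of the same code were taken to hold the same fetuses in the 3 tissues, which the labels do not name. Deviations of a pool from its group mean correlated little between tissues (median r of 0.07 to 0.11 over all genes, from -0.20 to 0.27 in single pools).

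IDI1 was far higher in both depots than in muscle. It averaged 23.5 ± 4.63 CPM in muscle, 130 ± 50.0 in subcutaneous tissue and 214 ± 58.6 in perirenal tissue (SD, n = 12 pools each, scale across tissues). No muscle pool overlapped any adipose pool, with a highest muscle value of 31.6 CPM and a lowest subcutaneous value of 53.2 CPM. The perirenal level was 9.01 times that in muscle (log2 difference 3.17 ± 0.17 SE, FDR 5.06e-14) and 1.69 times that in subcutaneous tissue (FDR 0.000224). Compared with muscle, the start coordinate of the merged IDI1 locus was 1514 bases higher in subcutaneous and 1366 bases higher in perirenal tissue. Its end coordinate was 131 bases lower in subcutaneous and 280 bases higher in perirenal tissue. The intervals include introns, so the effect of these differences on the counts cannot be read from counts per locus.

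INSIG1, the sterol-dependent brake on SREBP, followed the same order. It averaged 23.8 ± 6.72 CPM in muscle, 84.2 ± 29.8 in subcutaneous and 149 ± 49.4 in perirenal tissue. It was higher in subcutaneous tissue than in muscle in 12 of 12 pools and higher in perirenal than in subcutaneous tissue in 12 of 12 pools. The perirenal to muscle ratio was 6.20 (log2 2.63 ± 0.18, FDR 3.05e-12). The INSIG1 order therefore held within every pool, although the ranges of neighbouring tissues overlapped. The highest muscle value was 37.95 CPM and the lowest subcutaneous value 34.66 CPM. The highest subcutaneous value was 140.7 CPM and the lowest perirenal value 68.7 CPM.

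HMGCS1 was 44.4 ± 11.3 CPM in muscle, 56.7 ± 16.2 in subcutaneous and 108 ± 27.2 in perirenal tissue. Its perirenal level stood clear of muscle in every pool (log2 1.31 ± 0.15, FDR 2.28e-08), while the step from muscle to subcutaneous tissue was small (log2 0.37 ± 0.14, FDR 0.0270, higher in 8 of 12 pools) and was lost when any of 3 single pools (CN F1, CN M1 or DG F2) was left out, with log2 differences of 0.33 to 0.34. SQLE was 21.6 ± 6.67 CPM in muscle, 37.9 ± 10.6 in subcutaneous and 40.2 ± 12.5 in perirenal tissue. Both depots exceeded muscle in SQLE (log2 0.80 ± 0.17 and 0.91 ± 0.17, FDR 0.000219 and 4.27e-05), and a difference between the depots was not detected (log2 0.10 ± 0.17, FDR 0.598). The end coordinate of the merged SQLE locus was 693 bases lower in perirenal tissue and 11 bases higher in subcutaneous tissue than in muscle. Its effect on the counts was not tested.

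FDFT1 ran the other way, with 128 ± 18.9 CPM in muscle, 95.3 ± 19.5 in subcutaneous and 101 ± 24.2 in perirenal tissue. Muscle exceeded subcutaneous tissue by 1.35 times (FDR 0.00372) and perirenal tissue by 1.29 times (FDR 0.0102), and the second of these was lost without pool DG M2 (log2 -0.27). LSS averaged 5.18 ± 1.76 CPM in muscle, 3.97 ± 1.38 in subcutaneous and 9.96 ± 2.80 in perirenal tissue. The lowest perirenal LSS value, 6.73 CPM, lay above the highest subcutaneous value, 6.16 CPM (log2 1.36 ± 0.16, FDR 1.29e-07). Subcutaneous LSS was below muscle by 1.33 times (FDR 0.0249), a call that was lost when any of 5 pools (CN F2, CN M1, DG F1, HY F2 or HY M1) was left out, with log2 differences between -0.38 and -0.29.

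DHCR7 had 143 to 330 counts in every muscle pool but only 8 to 30 in subcutaneous and 7 to 37 in perirenal pools. These are 11.8 ± 2.44, 1.23 ± 0.42 and 1.27 ± 0.59 CPM. The muscle level was 9.81 times the subcutaneous level (FDR 5.21e-13) and 9.44 times the perirenal level (FDR 4.82e-13). The start coordinate of the merged DHCR7 locus was 1679 bases higher in both depots than in muscle, and the locus covered 8507 against 10186 bases. Muscle reads could thus be counted on sequence that the adipose loci leave out, and how many fell there cannot be read from counts per locus. No subcutaneous pool exceeded 1.93 CPM of DHCR7. Among them, DG F1 and HY F2 had 138763 and 117057 CPM of skeletal muscle markers, within the range of muscle itself (114441 to 167027 CPM). The part of the locus difference in the DHCR7 result was not tested, so its ratios are not a secure measure of tissue levels.

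SREBF2 had means of 71.3 ± 9.10 CPM in muscle, 50.8 ± 10.7 in subcutaneous and 64.5 ± 9.97 in perirenal tissue. Subcutaneous tissue was lowest, below muscle in 12 of 12 pools (1.42 times, FDR 1.2e-05) and below perirenal tissue in 11 of 12 (log2 0.36 ± 0.08, FDR 0.000754). Muscle and perirenal tissue could not be separated (FDR 0.10). The ranking of SREBF2 between tissues was thus not that of IDI1 or INSIG1, which SREBP-2 is known to raise.

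**Figure D1:**
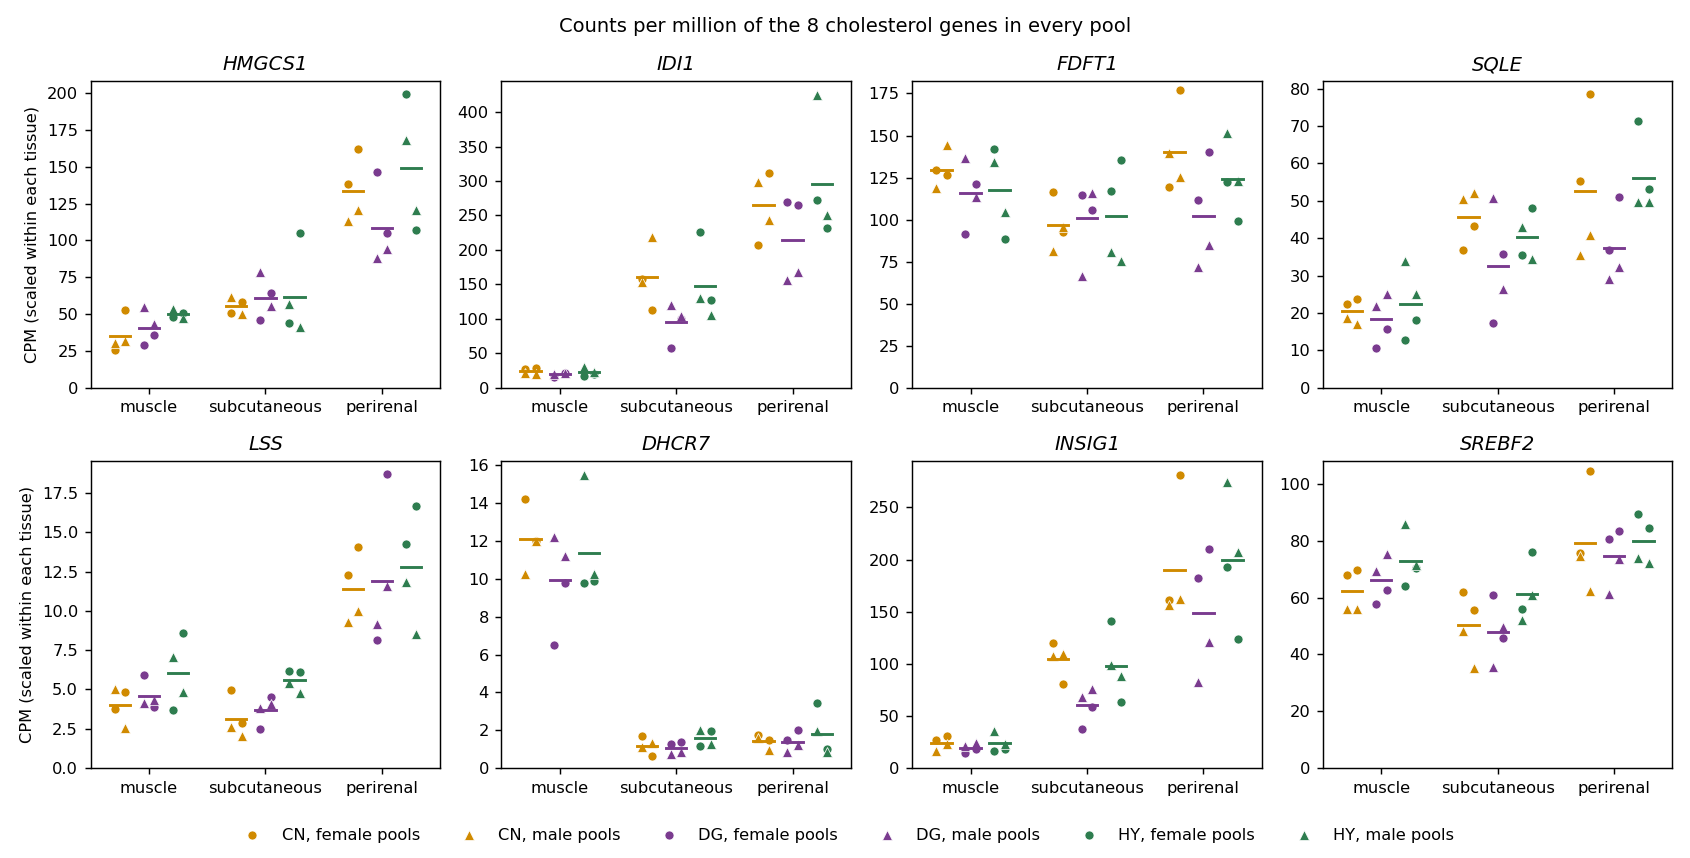
CPM, scaled within each tissue, of the 8 genes in every pool (circles for female and triangles for male pools, a bar for the mean of the 4 pools of a diet, each panel with its own linear axis from 0). IDI1 and INSIG1 step up from muscle to both depots. DHCR7 is near 0 in both depots, where it was counted on a shorter locus than in muscle. The DG mean lies below the HY mean in all 24 gene and tissue combinations.

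The question of the study was whether the maternal diet changed fetal gene expression, and for these 8 genes the differences between diets were modest. In all 3 tissues each of the 8 genes was lower on DG than on HY, but no gene passed FDR ≤0.05 in any of the 9 comparisons by edgeR. The share of all loci that did in muscle was 1.01% when CN was compared with DG, 2.69% when CN was compared with HY and 0% when DG was compared with HY. It was 0% in all 3 subcutaneous comparisons. In perirenal tissue it was 0.115% for CN vs DG and 0% in the other 2 comparisons. DESeq2 also called 0 of the 8 at this threshold. At an unadjusted p under 0.05 edgeR had 0 of the 8 genes in muscle, 2 in subcutaneous and 1 in perirenal tissue for CN vs DG. The corresponding numbers for CN vs HY were 1, 1 and 0, and those for DG vs HY were 0, 2 and 2. Over all loci, CN vs DG had 3020, 2699 and 1803, CN vs HY had 3785, 782 and 421, and DG vs HY had 396, 3264 and 1799.

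The median log2 difference of the 8 genes (HY minus DG) was 0.24 for muscle, 0.46 for subcutaneous tissue and 0.42 for perirenal tissue, while the medians of all loci lay between -0.01 and 0.02. Of all loci, 46.7% were higher in HY than DG for muscle, 49.9% for subcutaneous tissue and 52.4% for perirenal tissue. The 24 values rest on the same fetuses and on genes that move together, so they are not 24 separate observations, and they carry no test. The direction also depended on single pools in part. Leaving out any 1 pool left 7 or 8 of 8 genes higher in HY in muscle and in perirenal tissue, and 6 to 8 in subcutaneous tissue, where 6 remained without HY F2 and 6 without the 5 pools with over 60000 CPM of muscle markers (CN F2, DG F1, DG F2, DG M2 and HY F2). That last fit left DG with the 1 pool M1, which was assumed to vary like the others, and HMGCS1 and SQLE were then lower in HY (log2 -0.72 and -0.42).

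In subcutaneous tissue the pathway genes with the largest differences were INSIG1 and IDI1. INSIG1 had 120.1, 80.5, 108 and 109 CPM in CN (F1, F2, M1, M2), 37.6, 58.3, 68.4 and 76.0 CPM in DG, and 141, 63.8, 99.1 and 88.3 CPM in HY. All 4 DG pools lay below all 4 CN pools, and 3 of the 4 HY pools lay above every DG pool. The CN pools averaged 104 ± 16.8 CPM and the DG pools 60.1 ± 16.7 CPM (SD, n = 4). DG minus CN was -0.80 ± 0.26 on the log2 scale (FDR 0.264), with an exact two-sided permutation p of 0.0286, the smallest that 4 pools against 4 can give. HY minus DG was 0.71 ± 0.26 (FDR 0.189), which made INSIG1 the only one of the 8 genes at FDR ≤0.20 in any of the 9 comparisons, where 10.8% of all loci of that comparison reached this looser threshold. The call was lost without a filter, with only the 8 pools compared, and when any of 6 single pools (DG F1, DG F2, DG M2, HY F1, HY M1 or HY M2) was left out, with log2 differences of 0.48 to 0.84. HY minus CN was -0.09 ± 0.26 (FDR 0.989).

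IDI1 had 158, 113, 153 and 218 CPM in CN, 57.7, 99.1, 121 and 104 CPM in DG, and 226, 127, 131 and 106 CPM in HY. The lowest DG pool stood apart and 1 DG pool (M1) overlapped CN. The DG mean was 0.594 times the CN mean (log2 -0.75 ± 0.29, FDR 0.285), and HY minus DG was 0.63 ± 0.29 (FDR 0.271). SQLE, with 36.9, 43.2, 50.5 and 52.1 CPM in CN against 17.2, 35.9, 50.8 and 26.5 CPM in DG, had the same sign at a smaller size (log2 -0.49 ± 0.27, FDR 0.391). HMGCS1 had means of 55.2 CPM for CN, 61.1 for DG and 61.8 for HY, and FDFT1 had 96.5, 101 and 102 CPM, with DG not below CN in either.

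LSS was the gene with the largest HY excess over CN. Its subcutaneous levels were 4.95, 2.84, 2.59 and 2.02 CPM in CN, 2.48, 4.49, 3.80 and 4.08 CPM in DG, and 6.17, 6.12, 5.43 and 4.8 CPM in HY. The HY pools lay above every DG pool, and only CN F1 reached into the HY range. HY minus CN was 0.84 ± 0.30 (FDR 0.943), from 14 to 93 counts per pool. DHCR7 and SREBF2 were also higher in HY than in DG (log2 0.58 ± 0.38 and 0.35 ± 0.21, FDR 0.429 and 0.379).

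Listed genes of cholesterol biology that passed FDR ≤0.20 between DG and HY in subcutaneous tissue included SCARB1 and PMVK. SCARB1, the receptor for high-density lipoprotein, was at 75.4 CPM in DG and 146 CPM in HY (log2 0.96 ± 0.30, FDR 0.151). PMVK, the phosphomevalonate kinase early in the pathway, ran the opposite way, from 44.8 to 29.5 CPM (log2 -0.60 ± 0.19, FDR 0.155). By DESeq2, SCARB1 passed 0.05 (adjusted p of 0.0487).

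Marker genes of tissue composition varied widely between the subcutaneous pools of every diet, and their averages differed between diets. All 11 skeletal muscle markers tested were higher in DG than in CN subcutaneous pools (median log2 1.65) and all 6 adipocyte markers tested were lower (median -0.95), as were the 7 fatty acid synthesis genes (median -0.95). None of the 24 passed FDR ≤0.05. Between DG and HY, all 11 skeletal muscle markers were lower in HY (median -1.18), and all 6 adipocyte markers (0.87) and all 5 Schwann cell markers (2.0) were higher. Their part in the differences of the 8 genes was not tested beyond the values that follow. Summed muscle markers ranged from 3788 to 61052 CPM among CN pools, from 971 to 138763 among DG pools and from 843 to 117057 among HY pools. In each diet the pool with the most muscle markers (CN F2, DG F1 and HY F2) was also the lowest in INSIG1. For IDI1 this held in CN and DG but not in HY. With the muscle marker level as a covariate, DG minus CN was -0.70 for INSIG1 (FDR 0.112) and -0.67 for IDI1 (FDR 0.159). HY minus DG for INSIG1 was then 0.48 (FDR 0.271), and SREBF2 passed FDR ≤0.20 (log2 0.51, FDR 0.143). The share of all loci past FDR ≤0.20 in this covariate fit was not computed. Without the 5 pools rich in muscle markers, DG minus CN was -0.70 for INSIG1 (FDR 0.729) and -0.53 for IDI1 (FDR 0.824).

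In perirenal tissue, the DG pools were lowest on average for 7 of the 8 genes, and the spread between pools was wide. All 12 skeletal muscle markers (median log2 -0.64), 5 of 5 fibroblast markers (-0.36) and 4 of 4 Schwann cell markers (-0.66) were lower in HY than in DG there, and their part in the results was not tested. SQLE had 55.4, 78.7, 35.6 and 40.9 CPM in CN, 36.8, 51.0, 29.1 and 32.3 CPM in DG, and 71.3, 53.3, 49.6 and 49.8 CPM in HY. DG overlapped CN, and DG F2 alone overlapped HY. HY minus DG was 0.59 ± 0.24 (FDR 0.451), with an exact two-sided permutation p of 0.0857. HMGCS1 was at 147, 105, 88.3 and 94.1 CPM in DG and 200, 107, 168 and 121 CPM in HY (log2 0.46 ± 0.21, FDR 0.50).

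Between CN and DG in perirenal tissue, SQLE differed by -0.50 ± 0.24 (DG minus CN, FDR 0.520). FDFT1 had 119, 177, 139 and 125 CPM in CN and 111, 140.3, 71.6 and 84.9 CPM in DG (log2 -0.46 ± 0.20, FDR 0.462). Of the 8 genes, 7 were lower in DG than in CN, with a median of -0.30 (all loci -0.01), and LSS was the exception (0.04 ± 0.27). The 2 female DG pools were higher than the 2 male DG pools for 7 of the 8 genes, all but LSS. INSIG1, for example, had 182 and 210.2 CPM in the female and 82.6 and 121 CPM in the male DG pools.

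In muscle, HMGCS1 was the only one of the 8 genes with an unadjusted p under 0.05 between diets by edgeR, in CN vs HY. It had 25.5, 52.8, 30.6 and 31.5 CPM in CN, 29.1, 35.8, 55.0 and 43.1 CPM in DG, and 47.9, 50.7, 53.3 and 47.4 CPM in HY. The HY pools lay close to each other, and 3 of the 4 CN pools lay below all of them, with CN F2 in the HY range. HY minus CN was 0.50 ± 0.22 (FDR 0.210). Without CN F2 the difference was 0.77 and passed the threshold (FDR 0.0257), so this pool decided the call.

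Of the other genes in muscle, IDI1, INSIG1 and DHCR7 were lower in DG than in CN (log2 -0.33 ± 0.17, -0.34 ± 0.25 and -0.29 ± 0.21, FDR 0.370 to 0.527). LSS was higher in HY than in CN (log2 0.58 ± 0.28, FDR 0.257). FDFT1 and SREBF2 differed by at most 0.22 in any muscle comparison. HY pool M1 held the highest muscle level of SQLE (34.0 CPM), IDI1 (29.8), DHCR7 (15.5), INSIG1 (35.8) and SREBF2 (86.0).

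SREBF1, the gene of the SREBP form that mainly drives fatty acid synthesis, was the listed gene that passed FDR ≤0.05 between diets. In muscle it had 9.75, 5.89, 5.66 and 8.0 CPM in CN, 20.5, 14.4, 12.8 and 11.2 CPM in DG, and 16.0, 14.2, 13.8 and 12.6 CPM in HY. No CN pool overlapped DG or HY. DG minus CN was 1.01 ± 0.21 (FDR 0.0402) and HY minus CN was 0.95 ± 0.21 (FDR 0.0353). These values were not secure, since leaving out any of 6 pools in the first comparison and any of 5 in the second moved the FDR past 0.05, with log2 differences of 0.81 to 1.06 and 0.84 to 0.99. The DG muscle libraries were deeper than those of CN, and the 5 adipocyte markers tested were also higher in DG than in CN muscle (median log2 1.87). The part of either in the SREBF1 result was not tested. SREBF2 differed little there (DG minus CN 0.08 ± 0.12, FDR 0.777).

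**Figure D2:**
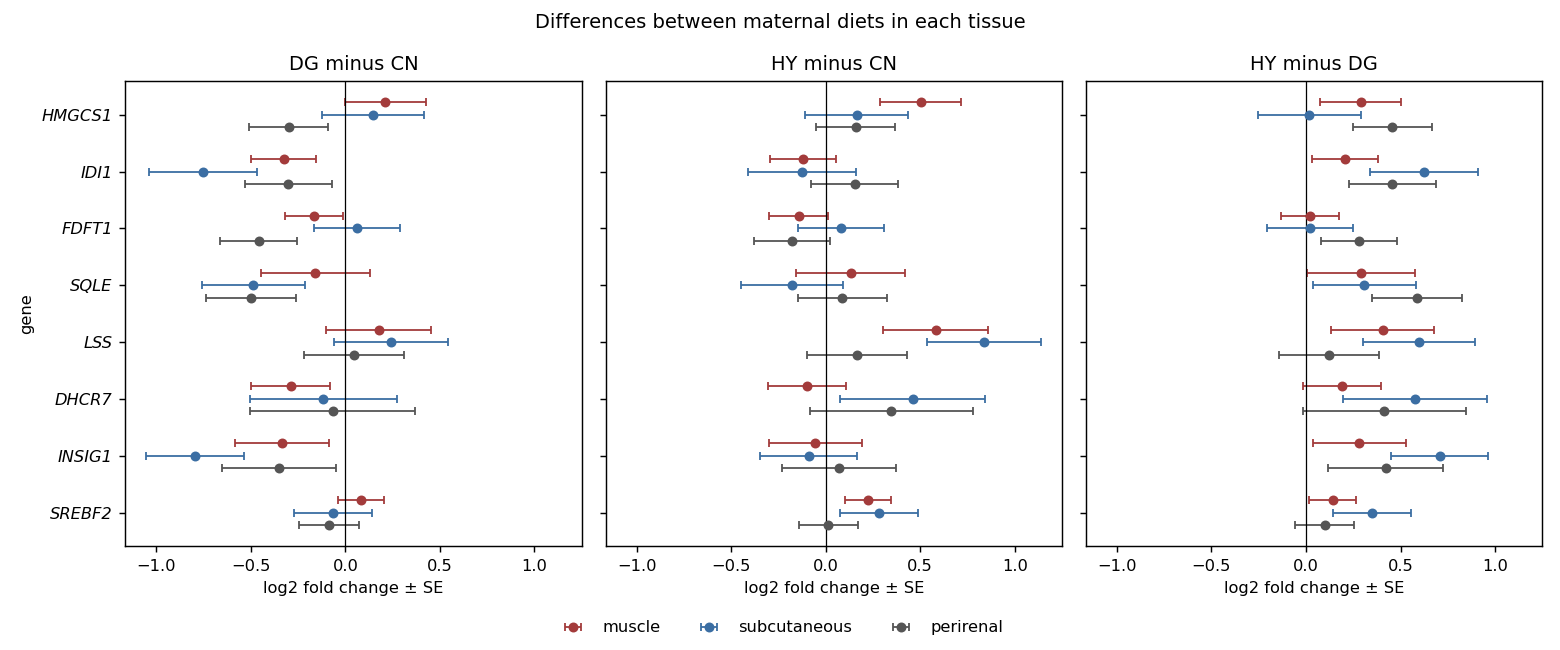
Log2 fold changes (x axis, with bars of 1 SE) of the 8 genes (y axis) for each pair of diets, by tissue. In the panel of HY minus DG all 24 points lie at or right of 0, from 0.02 to 0.71, and in the panel of DG minus CN the lowest points are INSIG1 and IDI1 in subcutaneous tissue.

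Of the 13 other synthesis enzymes tested, 8, 11 and 12 were lower in DG than in CN in muscle, subcutaneous and perirenal tissue. Of the same 13, 10, 11 and 10 were higher in HY than in DG, with median log2 differences of 0.02, 0.37 and 0.30. None passed FDR ≤0.05. The 8 uptake genes tested were split in muscle (4 higher and 4 lower in HY than DG) and in perirenal tissue (3 and 5), and 7 of 8 were higher in HY than in DG in subcutaneous tissue (median 0.35). The 7 genes of SREBP processing had 2, 5 and 4 members higher in HY than DG, and the 7 genes of efflux and esterification had 2, 7 and 3. Comparisons of CN vs DG and DG vs HY share the DG pools, so their values are not separate evidence.

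Whether a diet effect differed between the tissues was tested in the fit of all 36 libraries. None of the 8 genes passed FDR ≤0.05 in this test by edgeR or DESeq2 for any pair of diets, and none had an unadjusted p under 0.05. Of all 14629 genes, 0.0137% passed for CN vs DG and 1020 had an unadjusted p under 0.05. For CN vs HY these were 0% and 1040 genes, and for DG vs HY 1.31% and 2799 genes. The smallest p among the 8 genes was that of LSS for CN vs HY (FDR 0.779), where, in the fits of single tissues, HY minus CN was 0.58 ± 0.28 in muscle, 0.84 ± 0.30 in subcutaneous and 0.17 ± 0.27 in perirenal tissue. The larger DG differences of INSIG1 and IDI1 in subcutaneous tissue were therefore not shown to differ from those in the other tissues.

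The pools of 1 diet differed among themselves, and this variation was shared by many of the genes, in a way that depended on the tissue. Diet means were subtracted from log2 CPM, and each of the 28 pairs of genes was correlated over the 12 pools of a tissue. The p-values come from all 13824 rearrangements of pools within diets (exact permutation, two-sided) and were adjusted over the 84 pairs of the 3 tissues. In muscle the mean r of the 28 pairs was 0.46, in perirenal tissue 0.54 and in subcutaneous tissue 0.09, where the mean over all pairs of loci was 0.00 in each tissue. An r of at least 0.5 was reached by 14 of 28 pairs in muscle (13.3% of all pairs of loci), 19 in perirenal tissue (10.5%) and 4 in subcutaneous tissue (14.1%). After adjustment, 9 pairs passed 0.05 in muscle, 3 in perirenal tissue and 1 in subcutaneous tissue, and a test of the difference between tissues was not run.

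In muscle a tight group was formed by SQLE, IDI1, INSIG1, SREBF2 and DHCR7. INSIG1 and SREBF2 had r = 0.92 (Spearman's rho 0.90, exact permutation p = 0.000145, adjusted p = 0.0122), and r = 0.91 without the 2 pools farthest from the median of INSIG1. SQLE and SREBF2 had r = 0.90 (rho 0.91, exact permutation p = 0.000362, adjusted p = 0.0130; 0.88 without 2 pools). IDI1 and INSIG1 had r = 0.91 (rho 0.87, exact permutation p = 0.00109, adjusted p = 0.0130; 0.83 without 2 pools). Of the 10 pairs within this group, 9 passed and the tenth, IDI1 with DHCR7, had r = 0.77 (adjusted p = 0.0771). By Spearman's rho, SQLE with DHCR7 and SREBF2 with DHCR7 did not pass either (adjusted exact permutation p of 0.0968 and 0.0994), so 7 pairs passed by both measures.

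HY M1 and CN F2 were high and DG F1 was low in muscle, with 35.8, 30.6 and 14.1 CPM of INSIG1 and 34.0, 23.8 and 10.7 CPM of SQLE. FDFT1 and LSS stood outside the group, with mean r to the other 7 genes of 0.18 and -0.01, and they were inversely related to each other (r = -0.68, rho -0.69, exact permutation p = 0.0440, adjusted p = 0.137; -0.44 without 2 pools). HMGCS1 was intermediate (mean r 0.39).

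In perirenal tissue all 28 correlations were positive, from 0.05 to 0.96. The closest pair was FDFT1 and INSIG1 (r = 0.96, rho 0.89, exact permutation p = 0.000651, adjusted p = 0.0130; 0.95 without 2 pools), followed by IDI1 and FDFT1 (r = 0.89, rho 0.90, exact permutation p = 0.00109, adjusted p = 0.0130; 0.92 without 2 pools). SQLE and SREBF2 also passed (r = 0.84, rho 0.82, exact permutation p = 0.00608, adjusted p = 0.0393; 0.68 without 2 pools). FDFT1, which stood apart in muscle, thus had the highest mean r in perirenal tissue, 0.63, and LSS again had the lowest, 0.33.

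In subcutaneous tissue 19 of 28 correlations were positive and the genes did not form 1 group. HMGCS1 and SQLE were related (r = 0.69, rho 0.77, exact permutation p = 0.00152, adjusted p = 0.0155; 0.67 without 2 pools). IDI1 and INSIG1 had r = 0.81 (rho 0.87), which missed the threshold (exact permutation p = 0.00984, adjusted p = 0.0590; 0.62 without 2 pools). SREBF2 ran against IDI1 (r = -0.66), SQLE (-0.65) and INSIG1 (-0.53), the partners it followed in muscle with r of 0.90 to 0.92, although none of the 3 inverse relations passed (adjusted p 0.137, 0.137 and 0.213). When the muscle marker level was regressed out, the mean r of subcutaneous tissue was 0.17, and 1 pair passed as before.

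**Figure D3:**
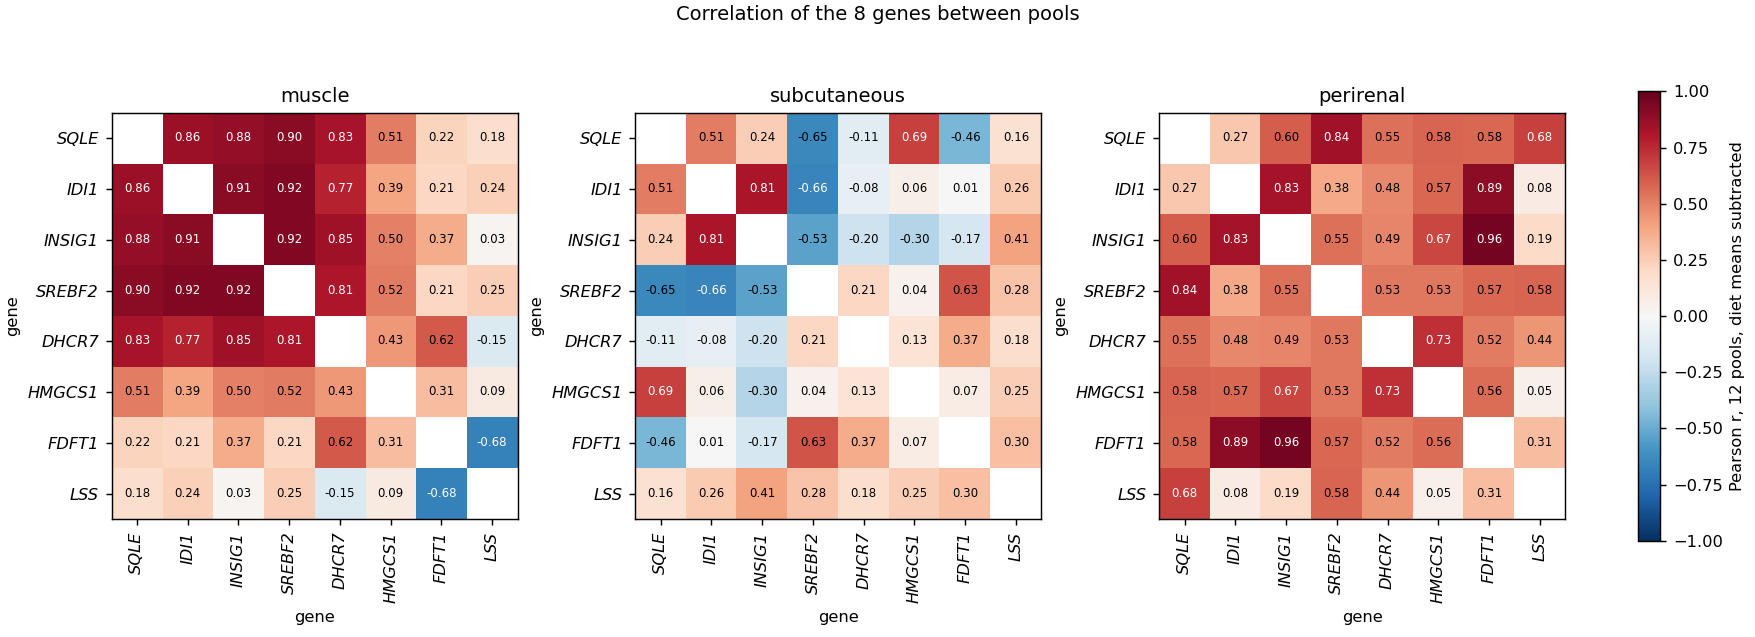
Pearson r between each pair of the 8 genes (rows and columns) over the 12 pools of each tissue, after diet means were subtracted (red above 0, blue below 0). A block of high values joins SQLE, IDI1, INSIG1, SREBF2 and DHCR7 in muscle, all values are above 0 in perirenal tissue, and SREBF2 has blue cells with SQLE, IDI1 and INSIG1 in subcutaneous tissue.

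Marker genes of other cells moved with these pool differences in part. The mean of the 8 standardised genes correlated over the 12 diet-centred pools with the summed endothelial markers in muscle (r = 0.71, 2 genes), and with the Schwann cell markers (r = 0.76, 5 genes) and inversely with the skeletal muscle markers (r = -0.71, 12 genes, at most 734 CPM) in perirenal tissue. In subcutaneous tissue its r was -0.01 with the skeletal muscle markers and 0.33 with the adipocyte markers. There the mean combined genes of which only 19 of 28 pairs had a positive r, and SREBF2 ran against IDI1 (r = -0.66). Opposite relations of single genes to a marker can cancel in such a mean, so these values do not describe single genes. With total counts the r was 0.34 in muscle, 0.03 in subcutaneous and 0.22 in perirenal tissue. Among the 11 marker lists, the subcutaneous r lay between -0.36 (kidney) and 0.36 (keratinocyte). These are descriptions over pools that share libraries, the muscle and perirenal lists were named after their values were seen, and their part in the joint variation was not tested. The kidney markers UMOD and AQP2 were at 0 in every perirenal pool.

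Fetal sex also differed between the pools of each diet, and its part in the joint variation was not tested. After sex means within each diet were subtracted as well, the mean r was 0.38 in muscle, 0.52 in perirenal and 0.09 in subcutaneous tissue, with 24, 27 and 18 of 28 pairs above 0. Only 64 rearrangements of pools remain in that case, too few for any pair to pass the adjustment, so no test was made.

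Across all 36 pools, with tissue and diet means removed, 11696 other genes were ranked by r with the mean of the 8 standardised genes. The closest was FADS1, a desaturase of polyunsaturated fatty acids (r = 0.79, and 0.75, 0.80 and 0.85 within muscle, subcutaneous and perirenal tissue). CYP51A1, the lanosterol demethylase that follows LSS, came next (0.78), and MSMO1, a later enzyme of the pathway, followed (0.74). MCEE (0.70), RDH11 (0.67), STT3B (0.62) and ACER3 (0.61) were also among the 10 closest. CYP51A1 and MSMO1 were not among the 8 genes that set the pattern.

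All 13 other synthesis enzymes had an r above 0 with a median of 0.43, where 51.2% of all ranked genes were above 0 and the median was 0.007. The 7 fatty acid synthesis genes had a median of 0.40, the 8 uptake genes 0.14, the 7 genes of SREBP processing 0.14 and the 7 efflux genes 0.02. The 12 skeletal muscle markers had a median of -0.27, with 0 of 12 above 0. Within perirenal tissue, where they summed to at most 734 CPM, their r lay between -0.76 (NEB) and -0.57 (TNNI2). Within muscle their r ranged from -0.40 (CKM) to 0.45 (ACTN2), and within subcutaneous tissue from -0.14 (TTN) to 0.10 (MYH3). MYH3 and MYH8 had the same subcutaneous value, because a locus with several names was counted under each name in this ranking. They are thus not separate markers in subcutaneous tissue. SREBF1 was not close to the 8 genes in muscle (r = -0.49) and was in perirenal tissue (0.64), while SCD, the stearoyl-CoA desaturase, was very close in muscle (0.96) and unrelated in subcutaneous tissue (-0.03).

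**Figure D4:**
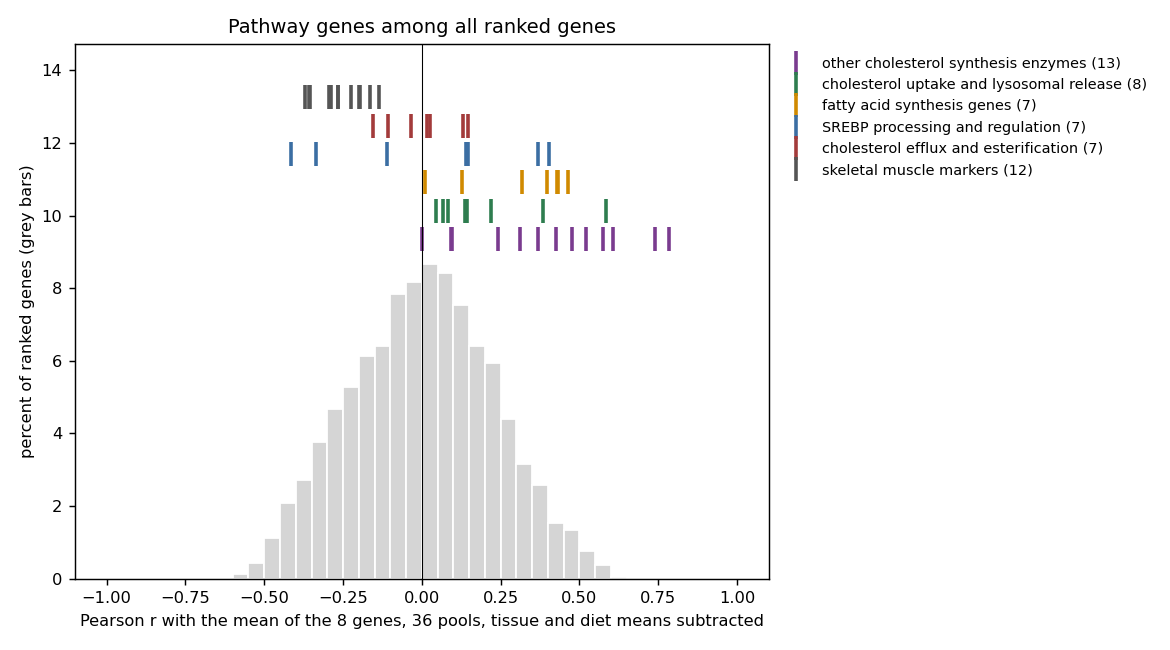
Histogram (grey, percent of 11696 ranked genes per bin of 0.05) of the Pearson r with the mean of the 8 genes over 36 pools, with tissue and diet means subtracted, and above it a tick for each gene of 6 lists. The ticks of the other cholesterol synthesis enzymes reach from 0.0008 to 0.78, and those of the skeletal muscle markers lie left of 0.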

How the data were processed

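Alignment by the authors used TopHat 2.0.4 and Oar_v3.1. Cufflinks 2.1.1 assembled the transcripts, which were merged with the annotation in each tissue separately. HTSeq is named in the labels, but its settings, strand and handling of multi-mapped reads are not given in the sources used here. The values the authors deposited are raw counts per locus, 1 file per library. Loci of the same name were summed, and loci without a name (3.56% to 14.8% of the reads) stayed in library sizes within tissues. For the fit and the ranking over all 36 libraries, a locus with several names was counted under each name. A filter on low counts (filterByExpr in edgeR 4.0.16, minimum count 10, minimum total 15) left 18570, 18007 and 18245 loci in muscle, subcutaneous and perirenal tissue. Counts were scaled by TMM, diets were compared by the robust quasi-likelihood F test over the 12 pools of a tissue, and tissues and tissue by diet terms in 1 fit of 14629 genes with pool as a block. FDR is the Benjamini-Hochberg adjusted p. SE is the absolute log2 fold change over the square root of F. Log2 CPM used a prior count of 2.

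The 8 genes and all lists were chosen with earlier results of these data known. Named genes were the 8, listed cholesterol genes past FDR ≤0.05 between diets (0.20 where nothing passed 0.05), and the 10 closest in the ranking. Some genes that this rule names are not reported here. Other genes were named after their values were seen. Libraries of a group differed beyond sampling noise (chi-square per locus at least 11.4), and none was identical to another. Fits were tested on simulated data. R 4.3.3, DESeq2 1.42.0, Python 3.11.15, numpy 2.4.6 and pandas 2.3.3 were used. Gene lengths and sequences were not used here, so levels were not compared between genes.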

Additional observations from a re-analysis of the deposited data

Results flagged for a closer look

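Of 72 groups of 4 pools (the 8 genes by tissue and diet), 3 held a pool set apart from the other 3 by a gap beyond Dixon's 95% critical value, where chance flags about 1 in 20. DHCR7 in HY muscle was 15.5 CPM in M1 against 9.77 to 10.3 CPM. SQLE in HY perirenal tissue was 71.3 CPM in F1 against 49.6 to 53.3 CPM, and INSIG1 in CN perirenal tissue was 281 CPM in F2 against 157 to 162 CPM. In each case the pool was the highest of its group.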

How the results depend on the processing

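The count of the 8 genes called between tissues stayed at 6 to 8 for subcutaneous tissue vs muscle, 6 to 7 for perirenal tissue vs muscle and 5 for the depots when single pools were left out. FDFT1 between the depots went from 0.07 to -0.0022 without HY M1, with values up to 0.22, and DHCR7 from 0.06 to -0.14 without HY F1, with values up to 0.24. Neither was called. The cause was not tested.

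Between diets at FDR ≤0.05, 0 of 8 genes were called under every alternative run except 1 (HMGCS1 in muscle, CN vs HY, without CN F2). At FDR ≤0.20, muscle CN vs HY went from 0 to 1 gene with DESeq2, with the replicate block and with only the 8 pools compared. Subcutaneous CN vs DG went from 0 to 2 with DESeq2, with the muscle marker covariate and with muscle marker and sex covariates, and to 1 with the replicate block. Subcutaneous DG vs HY went from 1 to 0 without a filter, with only the 8 pools compared and without the pools rich in muscle RNA. Leaving out single pools gave 0 to 1 for CN vs HY, and likewise for CN vs DG, among the muscle comparisons. In subcutaneous tissue it gave 0 to 3 for CN vs DG (3 without DG M1), 0 to 1 for CN vs HY (1 without CN F1) and 0 to 3 for DG vs HY (3 without DG M1 or HY F2, and 0 without any of the other 6 pools). Pool numbers do not pair the diets: deviations of same-numbered pools correlated between -0.42 and 0.64, above 0.1 in 14 of 36 pairs. With the replicate block, 7 of 8 genes were higher in HY than DG in subcutaneous tissue. The share of all loci called was not computed for the alternative fits, so the counts of genes called there have no share beside them. In the main fits the share at FDR ≤0.20 was 16% for muscle CN vs HY, 0% for subcutaneous CN vs DG and 10.8% for subcutaneous DG vs HY.

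Mean r between the genes was 0.42 in muscle and 0.16 in subcutaneous tissue without subtraction of diet means, with 0 subcutaneous pairs passing. It was 0.17 in subcutaneous tissue on residuals of the muscle markers, and 0.38 in muscle with diet and sex means subtracted. Without single pools the muscle mean r ranged from 0.37 to 0.50, the subcutaneous from 0.033 to 0.14 and the perirenal from 0.46 to 0.59, and passing pairs from 5 (without HY M1) to 9, from 0 (without HY F1) to 3 (without HY F2), and from 2 to 4. Subtraction of sex means, muscle and sex covariates together, and leaving out the 5 pools rich in muscle RNA were chosen after seeing the data. DHCR7 had only 7 to 37 counts in the depots, so its values there carry wide counting error.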
